A study of Mus musculus with 4 samples.

Results

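miRNAs are usually cut from a long primary transcript by the nuclear enzyme Drosha and then trimmed by Dicer. A small group of miRNAs reaches Dicer without Drosha, and 6 mature strands of this group were followed here from MIN6 cells into the exosomes that these cells release. They were chosen by name from 1915 mature mouse miRNAs in the deposited table, and all 6 had a count. miR-320-3p and miR-484 are reported to come from short transcripts that carry a cap, and the strands miR-702-3p, miR-877-5p, miR-877-3p and miR-1224-5p come from mirtrons. MIN6 is a mouse insulinoma line, a tumor-derived model of the pancreatic beta cell, and was grown untreated in a medium with exosome-depleted serum. The exosomes were pelleted by ultracentrifugation from the pooled medium of several MIN6 flasks. Small RNA was sequenced in 2 cell and 2 exosome libraries, and no other treatment or genotype was compared.

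In a mirtron, splicing does the work of Drosha. A short intron is cut out of a host transcript, opened from its lariat and folded into a hairpin that Dicer can take. A capped precursor is made by RNA polymerase II as a short RNA that already has the size of a hairpin, so that its start is the start of transcription. Both kinds end as ordinary mature miRNAs on Argonaute proteins. Neither the cap nor the need for Drosha was measured in these libraries.

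The mature sequences, with the prefix mmu for mouse, are shown because the 6 strands have no common seed, the stretch of bases 2 to 8 that pairs with a target, which is given in capitals from 5′ to 3′. The sequences are those in the deposited hairpin tables, and 5 of the 6 were also listed by RefSeq for GRCm38.p6 with the same letters.
mmu-miR-320-3p: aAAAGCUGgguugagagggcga
mmu-miR-484: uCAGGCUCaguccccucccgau
mmu-miR-702-3p: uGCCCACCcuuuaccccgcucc
mmu-miR-877-5p: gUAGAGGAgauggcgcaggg
mmu-miR-877-3p: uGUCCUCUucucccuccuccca
mmu-miR-1224-5p: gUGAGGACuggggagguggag
None of the 6 seeds was found in another of the 1851 listed miRNAs with a known sequence. The strands were rich in G and C, between 54.5% for miR-320-3p and 68.2% for miR-702-3p, whereas the median of the 438 tested miRNAs was 47.9%. None of the 6 sequences was found in the sense strand of the 139565 transcripts that GENCODE vM21 lists outside miRNA genes.

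Among the host introns of the mirtron strands followed here, the hairpins of the 2 with most reads are shown in full. Their 2 annotated mature arms are in capitals, and each hairpin spans a whole intron.
mir-877: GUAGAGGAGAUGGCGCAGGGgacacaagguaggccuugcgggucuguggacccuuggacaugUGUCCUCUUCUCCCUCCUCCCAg
mir-1224: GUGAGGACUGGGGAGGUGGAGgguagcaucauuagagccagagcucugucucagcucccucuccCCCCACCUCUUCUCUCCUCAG
Each of these sequences matched an annotated miRNA gene of GRCm38 and was 85 bases long. Mir877 lies on the minus strand of chromosome 17 from 35960730 to 35960814 and has the same first and last base as an intron of Abcf1, a gene for a translation factor. Mir1224 lies on the plus strand of chromosome 16 from 20604452 to 20604536 and has the same ends as an intron of Vwa5b2. Mir702 lies on the plus strand of chromosome 5 from 136991433 to 136991541 and is placed less exactly. Its hairpin begins 9 bases before an intron of Plod3, which codes for a collagen-modifying enzyme, and ends 2 bases before the end of that intron. miR-702-5p, the other arm, begins at base 10 of the hairpin and thus at the first base of the intron. Among 868 hairpins matched to the annotation, 16 had both ends within 3 bases of the ends of an intron, and mir-877 and mir-1224 were in this group.

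The capped pair lies outside introns of its own strand. Mir320 is on the plus strand of chromosome 14 from 70443510 to 70443591, and the start of Polr3d, a subunit gene of RNA polymerase III, lies 63 bases away on the opposite strand. miR-320-3p is the 3′ arm of its hairpin, from base 48 to base 69 of 82. Mir484 is on the plus strand of chromosome 16 from 14159626 to 14159692, opposite an exon of Marf1, and miR-484 takes bases 5 to 26 of the 67 bases of its hairpin, on the 5′ arm.

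The cell libraries held 2930217 and 2564068 mature counts, and those of the exosomes held 47447 and 31409. Levels are given as CPM, counts scaled by library size and TMM factor. At this depth, 3 counts, taken here as the floor, equaled 1.55 and 1.91 CPM in the cells, against 35.4 and 69.9 CPM in the exosomes. The replicates differed by more than counting noise, the chi-square over its degrees of freedom being 19.5 in cells and 58.2 in exosomes. Nothing in the labels says that they came from separate cultures, so p-values measure the spread between these libraries, which may be technical. The exosome libraries were checked for quality on another instrument than the cell libraries, so handling and group cannot be told apart. The beta-cell miRNAs miR-375-3p and miR-7a-5p were present in all 4 libraries, with a summed level of 54522 and 58880 CPM in the cells, against 10623 and 5915 CPM in the exosomes. miR-7a-5p made up most of the sum in the cells, with 40699 and 42737 CPM, against 4645 and 745 CPM in the exosomes. miR-375-3p had 13823 and 16143 CPM in the cells, against 5978 and 5170 CPM in the exosomes. By plain reads per library size the groups of miR-375-3p overlapped. The 8 markers of blood, liver and muscle summed to 33.1 and 34.4 CPM in the cells and to 4598 and 2468 CPM in the exosomes. Of these 8, 4 and 5 were at 0 in the cells, against 1 and 3 at 0 in the exosomes, and the muscle miRNA miR-133a-3p had no count in any library. The sum of these markers moved in the same direction as several of the strands described here, and their part in the results was not tested. The other muscle miRNA, miR-1a-3p, was read 47 and 29 times in the cells and 3 and 0 times in the exosomes, and its groups overlapped. In such bulk libraries, fewer vesicles that carry a miRNA and fewer copies per vesicle cannot be told apart.

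The 6 strands were a small part of the miRNA pool and a larger part of it in the exosomes. Together they took 0.110% (95% Wilson interval 0.106 to 0.114) and 0.0991% (0.0953 to 0.103) of the mature counts of the 2 cell libraries. For the exosome libraries this was 0.752% (0.679 to 0.834) and 0.665% (0.581 to 0.762). The mean share of the cells was 0.104% ± 0.00749 (SD, n = 2). That of the exosomes was 0.709% ± 0.0615 (SD, n = 2), which is 6.79 times as large. These are shares of raw counts, and on that scale the median tested miRNA was also higher, by 0.61 on the log2 scale. Summed TMM-normalized CPM of the 6 strands were 1663 and 1618 in the cells, against 4209 and 4867 in the exosomes, a ratio of means of 2.77. The mean share was 5.32 times as large in the exosomes for the 2 capped miRNAs, and 9.23 times for the 4 mirtron strands. The mirtron sum leaves out miR-1224-3p, the other arm of mir-1224, read 847 and 670 times in the cells and 37 and 31 times in the exosomes. When the 5 most abundant miRNAs of each group were left out of the sum, the 6 strands were still 6.53 times as large a part in the exosomes. The smallest p that exact permutation allows for 2 libraries a group is 0.333, so these shares carry no p-value, and intervals cover counting error only.

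Exosomes were compared with cells for each miRNA to see which were carried in different proportion. Of the 6 strands, miR-320-3p, miR-877-5p and miR-1224-5p were higher in exosomes, 0 were lower, and miR-484, miR-877-3p and miR-702-3p did not pass the adjusted threshold of 0.05 in edgeR's quasi-likelihood test. Across the 438 miRNAs tested, 104 (23.7%) were higher and 129 (29.5%) were lower, 53.2% in all. The median log2 fold change of the 6 strands was 1.37, also with miR-702-3p, for which no fold can be given, set to 0. The median of all tested miRNAs was -0.75, and it was 0 when the 160 of them without a fitted fold were placed at their bound or, with no bound, at 0. At an unadjusted p under 0.05, the same test gave 3 higher and 0 lower among the 6. The share of all tested miRNAs at that threshold was not counted. DESeq2 with its adjusted p also gave 3 and 0, where 26.7% of all tested miRNAs were higher and 32.2% lower. The exactTest at a fold of 2 and an unadjusted p under 0.05, used in the study's methods, gave 3 and 0 as well and called 27.4% of all tested miRNAs higher. Without cell replicate 1 or 2, 4 of the 6 were tested and 0 passed, where 21.4% of 238 and 19.2% of 239 miRNAs were higher. When no filter on low counts was applied 0 of the 6 passed, and 9.45% of 1101 miRNAs were higher.

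**Figure D1:**
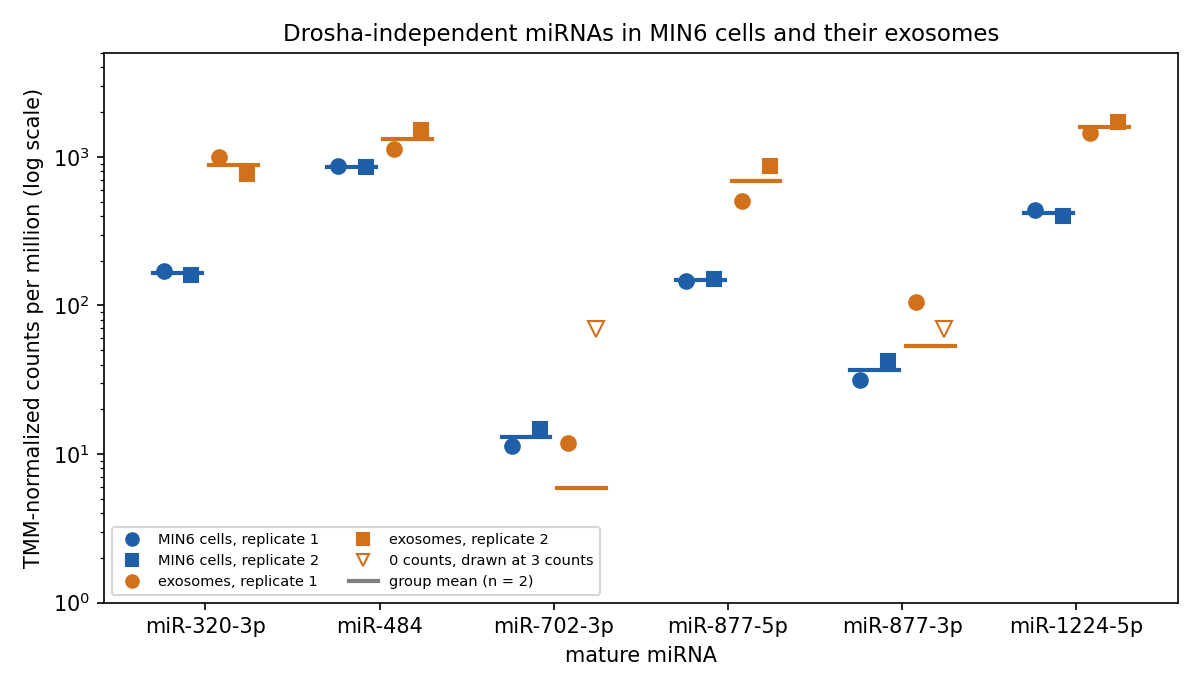
TMM-normalized CPM on a log axis for the 6 mature strands in each of the 2 cell libraries (blue) and 2 exosome libraries (orange), with a line at each group mean and open triangles at the level of 3 counts where a library had 0. Both exosome points lie above both cell points for miR-320-3p, miR-484, miR-877-5p and miR-1224-5p, and miR-702-3p and miR-877-3p had no count in exosome replicate 2.

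miR-320-3p, the 3′ strand of a capped precursor, had a larger fitted increase than the other strands, except without exosome replicate 1, where miR-877-5p was at 2.90 and miR-320-3p at 2.58 on the log2 scale. It was read 328 and 252 times in the cells, and 85 and 33 times in the much shallower exosome libraries. On the normalized scale this was 170 and 161 CPM in the cells, against 1002 and 768 CPM in the exosomes. Both exosome libraries were above both cell libraries. Of the 6 strands, 4 were separated in this direction and 0 in the other, against 33.3% and 51.8% of the tested miRNAs. By plain reads per library size (RPM) the same 4 strands lay above, against 41.3%. The log2 fold change was 2.43 (SE 0.37, adjusted p = 0.0119 in the quasi-likelihood fit of edgeR), a fitted fold of 5.38. It ranked 110 of the 438 tested miRNAs by fold change. Without either cell library the log2 fold change was 1.79 and 1.83, with an adjusted p of 0.299 and 0.304 from the quasi-likelihood test, and without a filter it was 1.12.

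The other arm of the same hairpin, miR-320-5p, was read 39 and 36 times in the cells, and 0 and 3 times in the exosomes. It was at or under the floor in both exosome libraries, so no fold is given. Of the reads on both arms, miR-320-3p took 89.4% (95% Wilson interval 85.8 to 92.1) and 87.5% (83.2 to 90.8) in the cell libraries. In the exosomes it took all 85 reads of replicate 1, with an interval from 95.7% to 100%, and 91.7% in replicate 2 (78.2 to 97.1). The 3′ arm thus held most arm reads of mir-320 in all 4 libraries.

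miR-484, the other capped miRNA, had the most counts of the 6 in the cells, with 1675 and 1335, and 96 and 65 in the exosomes. This equaled 867 and 851 CPM in the cells, against 1132 and 1514 CPM in the exosomes. The exosome libraries lay above the cell libraries, but the log2 fold change of 0.62 (SE 0.36) did not pass, and the quasi-likelihood fit of edgeR gave an adjusted p of 0.205. It was 0.01 and 0.10 without cell replicate 1 and 2, and -0.70 when no filter was applied. It passed with library size as the only scaling (1.91, adjusted p = 0.0307 from the same test) and without exosome replicate 1 (1.18, adjusted p = 0.00259).

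miR-877-5p, the strand at the 5′ end of the Abcf1 intron, was read 284 and 236 times in the cells, and 43 and 37 times in the exosomes. The levels were 147 and 150 CPM in the cells, against 507 and 862 CPM in the exosomes, so the groups did not overlap. The log2 fold change was 2.19 (SE 0.44, adjusted p = 0.0206 in the quasi-likelihood fit of edgeR), a fitted fold of 4.55. Without either cell library it was 1.57 and 1.72 (adjusted p of 0.372 and 0.352 from the quasi-likelihood test), and without a filter it was 0.87.

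miR-877-3p, from the other end of the same intron, was much rarer. It was read 61 and 66 times in the cells, which is 31.6 and 42.1 CPM, and 9 and 0 times in the exosomes. Exosome replicate 1 was therefore at 106 CPM, above both cell libraries, and replicate 2 was under its floor of 69.9 CPM. The groups overlapped, and the log2 fold change was 0.83 (SE 0.95, adjusted p = 0.485 in the quasi-likelihood fit of edgeR). It passed without exosome replicate 2 (1.63, adjusted p = 0.0258 from the same test). No fold can be given without exosome replicate 1, and the value was -0.47 when no filter was applied.

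miR-1224-5p, the 5′ strand of the Vwa5b2 intron, was the most abundant of the 6 in the exosomes. Its counts were 843 and 628 in the cells, against 123 and 74 in the exosomes, where it ranked 51 and 34 among all mature miRNAs, against 117 and 123 in the cells. The levels were 436 and 400 CPM in the cells, against 1450 and 1723 CPM in the exosomes, and the groups did not overlap. The log2 fold change was 1.92 (SE 0.35, adjusted p = 0.0179 in the quasi-likelihood fit of edgeR), a fitted fold of 3.79. With the replicate number as a block the adjusted p from the quasi-likelihood test rose to 0.0610. Without either cell library the value was 1.35, with an adjusted p of 0.349 and 0.372, and without a filter it was 0.60.

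miR-702-3p, from the Plod3 intron, was the rarest of the 6, read 22 and 23 times in the cells, and 1 and 0 times in the exosomes. Its 11.4 and 14.7 CPM in the cells lay under the exosome floors of 35.4 and 69.9 CPM, so a decrease, or an increase to a level still under those floors, was not detectable at this depth and no fold is given. The other arm, miR-702-5p, was read 2 and 3 times in the cells and 0 in the exosomes.

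All 6 are 20 to 22 bases long, so their CPM can be set side by side without a correction for length, although how well the library kit captures each sequence is not known. In the cells the order was miR-484 (859 ± 11.6 CPM, SD, n = 2), miR-1224-5p (418 ± 25.6), miR-320-3p (165 ± 6.52), miR-877-5p (149 ± 2.37), miR-877-3p (36.8 ± 7.41) and miR-702-3p (13.0 ± 2.31), and the libraries of neighbours in this order did not overlap. In the exosomes miR-1224-5p came first with 1587 ± 193 CPM (SD, n = 2) and miR-484 followed with 1323 ± 270, within each other's range. miR-320-3p at 885 ± 165 CPM and miR-877-5p at 684 ± 251 also overlapped there, as did miR-877-3p and miR-702-3p.

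Ratios within a library do not depend on the scaling between libraries, and miR-484 was taken as the common partner for the 3 strands that were higher. For each miR-484 count there were 0.196 and 0.189 counts of miR-320-3p in the cells, but 0.885 and 0.508 in the exosomes. As a percent of the sum of both miRNAs, miR-320-3p held 16.4% (95% Wilson interval 14.8 to 18.1) and 15.9% (14.2 to 17.8) in the cells, but 47.0% (39.8 to 54.2) and 33.7% (25.1 to 43.5) in the exosomes. The intervals of cells and exosomes did not overlap. For each miR-484 count, miR-877-5p had 0.170 and 0.177 counts in the cells, against 0.448 and 0.569 in the exosomes. miR-1224-5p had 0.503 and 0.470 counts for each miR-484 count in the cells, against 1.28 and 1.14 in the exosomes. As a percent of the sum of both, miR-1224-5p held 56.2% (49.5 to 62.6) and 53.2% (45.0 to 61.3) in the exosomes, and both intervals include equal numbers. Since the 3 strands had larger fitted folds than miR-484, the rise of each ratio restates that difference and is no separate support. With 2 libraries a group these ratios were not tested.

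**Figure D2:**
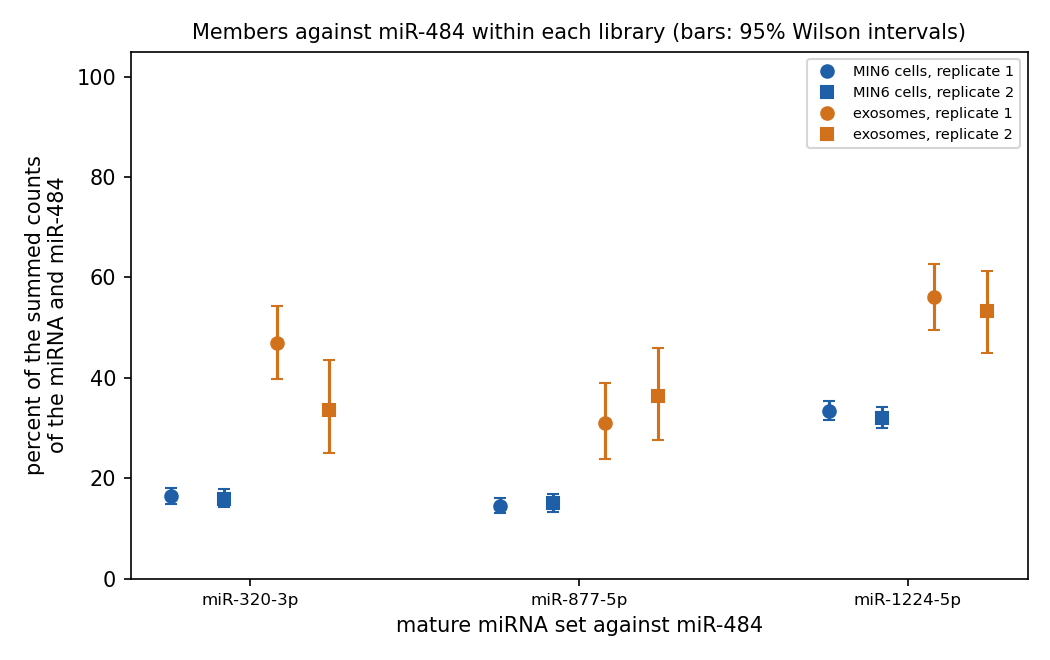
Share of miR-320-3p, miR-877-5p and miR-1224-5p in the summed counts of each and miR-484, in percent, for each library, with 95% Wilson intervals that cover counting error. For miR-320-3p the 2 cell libraries sit at 16.4% and 15.9% and the 2 exosome libraries at 47.0% and 33.7%, and the exosome libraries are also the higher ones for the other two.

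Where a hairpin spans a whole intron, splicing cuts both of its ends. Its 2 arms are thus made in equal number before Dicer and Argonaute select a strand. In the cells the arms of mir-1224, shown above, gave nearly the same number of reads, with 847 and 670 counts of miR-1224-3p. In the exosomes miR-1224-3p had 37 and 31 counts. miR-1224-5p thus took 49.9% (95% Wilson interval 47.5 to 52.3) and 48.4% (45.7 to 51.1) of the arm reads in the cells, but 76.9% (69.8 to 82.7) and 70.5% (61.2 to 78.4) in the exosomes. The intervals of the exosomes lay above those of the cells. This shift of the mean by 24.5 percentage points ranked 10 among 60 hairpins with at least 10 arm reads in every library, for which the median shift in either direction was 6.79 points. Among these 60 hairpins the 5p share of both exosome libraries was above both cell libraries in 40% and below in 28.3%. miR-1224-3p itself had 438 and 427 CPM in the cells, against 436 and 722 CPM in the exosomes, with overlapping groups and a log2 fold change of 0.40 (SE 0.41, adjusted p = 0.439 in the quasi-likelihood fit of edgeR). Its log2 fold change was -0.92 when no filter was applied, and it passed with library size as the only scaling (1.69, adjusted p = 0.0423 in the same fit) and without exosome replicate 1 (1.10, adjusted p = 0.0105).

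The arms of mir-877 were unequal in the cells already. miR-877-5p took 82.3% (95% Wilson interval 77.9 to 86.0) and 78.1% (73.1 to 82.4) of the arm reads in the cells. In exosome replicate 1 it took 82.7% (70.3 to 90.6) and in replicate 2 all 37 reads, with an interval from 90.6% to 100%. The interval of exosome replicate 1 overlapped those of both cell libraries, and that of replicate 2 did not.

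**Figure D3:**
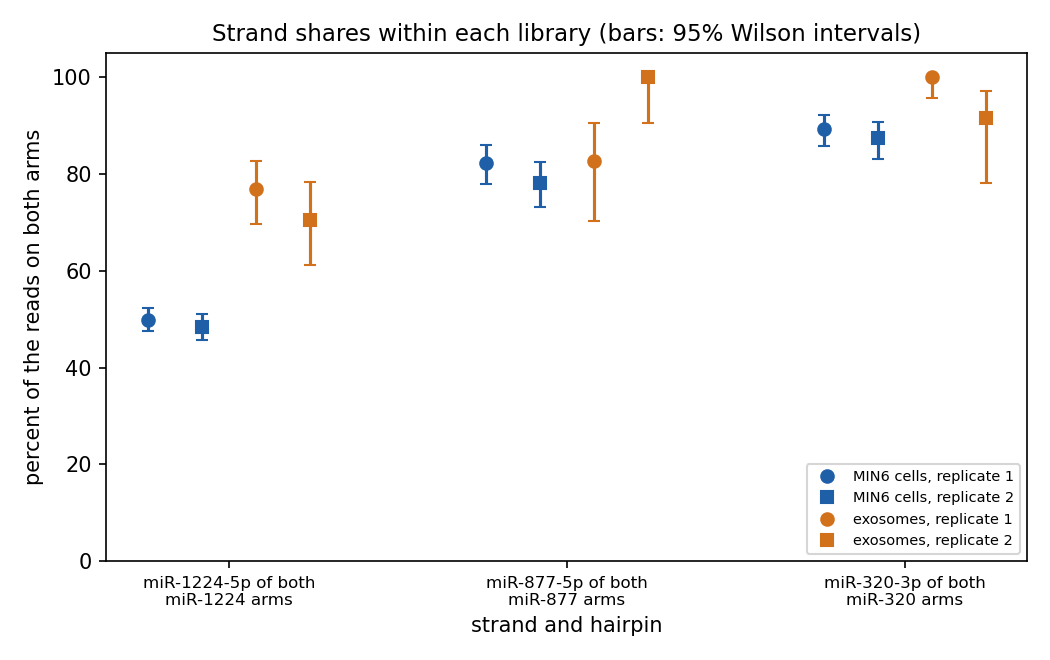
Share of the named strand in the reads on both arms of its hairpin, in percent, for each library, with 95% Wilson intervals that cover counting error. miR-1224-5p sits at 49.9% and 48.4% in the cells and at 76.9% and 70.5% in the exosomes, whereas the intervals of cells and exosomes overlap for miR-877-5p and miR-320-3p in at least 1 exosome library.

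Reads on a hairpin but on neither annotated arm can come from the loop, from flanks or from other pieces of the transcript. In the cells such off-arm reads were few, at most 4% of the hairpin reads for any of the 5 hairpins. On mir-320 they were 9 of 376 and 12 of 300 reads in the cells, which is 2.39% (95% Wilson interval 1.26 to 4.49) and 4% (2.30 to 6.86). In the exosomes they were 11 of 96 reads, 11.5% (6.52 to 19.4), and 24 of 60 reads, 40% (28.6 to 52.6). Both exosome libraries were above both cell libraries. On the mir-484 hairpin 0 of 96 and 1 of 66 reads were off the arm in the exosomes, which for the first allows a share of up to 3.85% by the Wilson interval. On mir-877 and mir-1224 both exosome libraries were likewise above both cell libraries, from few off-arm reads. How many of all hairpins were separated in this way was not counted. For mir-877 these were 5 of 350 and 6 of 308 in the cells (1.43% and 1.95%). In the exosomes they were 3 of 55 and 3 of 40 (5.45% and 7.5%). For mir-1224 they were 5 of 1695 and 0 of 1298 in the cells, against 1 of 161 and 4 of 109 in the exosomes. The Wilson interval of mir-1224 was 0.110% to 3.43% in exosome replicate 1 and 0.126% to 0.689% in cell replicate 1. These overlapped, as did the intervals of exosomes and cells for mir-877. For mir-702 they were 1 of 2 and 5 of 5 in the exosomes, too few to read a share from. Over the 135 hairpins with at least 10 reads in every library the median off-arm share was 0.0808% and 0.0520% in the cells, against 2.13% and 3.33% in the exosomes. The upper quartile over these hairpins was 29.1% and 52.1% in the exosomes, above the values of mir-320.

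Other miRNAs reported to bypass Drosha or its partner Dgcr8, or in the case of miR-451a to bypass Dicer, were examined as a list of 12. Of these, 9 were tested, 1 was higher in exosomes, 6 were lower and 2 did not pass, where 23.7% of all tested miRNAs were higher and 29.5% lower. Without miR-451a, miR-1839 and miR-1983, 5 were tested, 0 were higher, 3 were lower and 2 did not pass. Their median log2 fold change was -2.31, or -1.56 with miRNAs at the floor placed at their bound or at 0. The mirtron strand miR-3102-3p was the most abundant of the list in the cells, read 5582 and 5047 times in the cells, and 20 and 7 times in the exosomes. It fell from 2890 and 3216 CPM to 236 and 163 CPM, a log2 fold change of -3.91 (SE 0.43, adjusted p = 0.00715 in the quasi-likelihood fit of edgeR). Its hairpin lies on the minus strand of chromosome 7 from 100882306 to 100882409 and, like mir-877 and mir-1224, has the ends of an intron, here of Arhgef17. Another strand of that hairpin, miR-3102-5p.2-5p, was read 100 and 103 times in the cells, 8 and 3 times in the exosomes, and did not pass (log2 fold change 0.53, adjusted p = 0.328 in the quasi-likelihood fit). Its value was -0.76 when no filter was applied, and with library size as the only scaling it passed (1.89, adjusted p = 0.0399 in that fit). miR-1981-3p, from a mirtron in Marc2, was read 292 and 251 times in the cells and none in the exosomes, where it was at least 2.96-fold lower. The other strand of that hairpin, miR-1981-5p, was read 96 and 78 times in the cells and 3 and 1 times in the exosomes. It was at or under the floor there and did not pass, so no fold is given. Strands of different mirtrons were therefore higher and lower in the same exosome libraries.

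The remaining lower calls of that list were miR-3102-3p.2-3p (log2 fold change -2.31), miR-1839-5p (-2.53), miR-1839-3p (-1.58) and miR-1983, which was at least 2.30-fold lower. With library size as the only scaling, miR-3102-3p.2-3p, miR-1839-5p and miR-1839-3p were still below 0 and no longer passed. With upper quartile scaling miR-3102-3p.2-3p (adjusted p = 0.0565 in the quasi-likelihood fit) and miR-1839-3p (0.180) did not pass, nor did miR-1839-3p with the replicate block (0.150). miR-451a, the one higher call, is an erythroid miRNA that had no count in the cells, against 33 and 2 in the exosomes, a bound of at least 126-fold, and no fold can be given once exosome replicate 1 is left out. The 12 miRNAs together made up 0.344% and 0.341% of all mature counts for the cells, against 0.198% and 0.115% for the exosomes, opposite in direction to the 6 strands above.

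**Figure D4:**
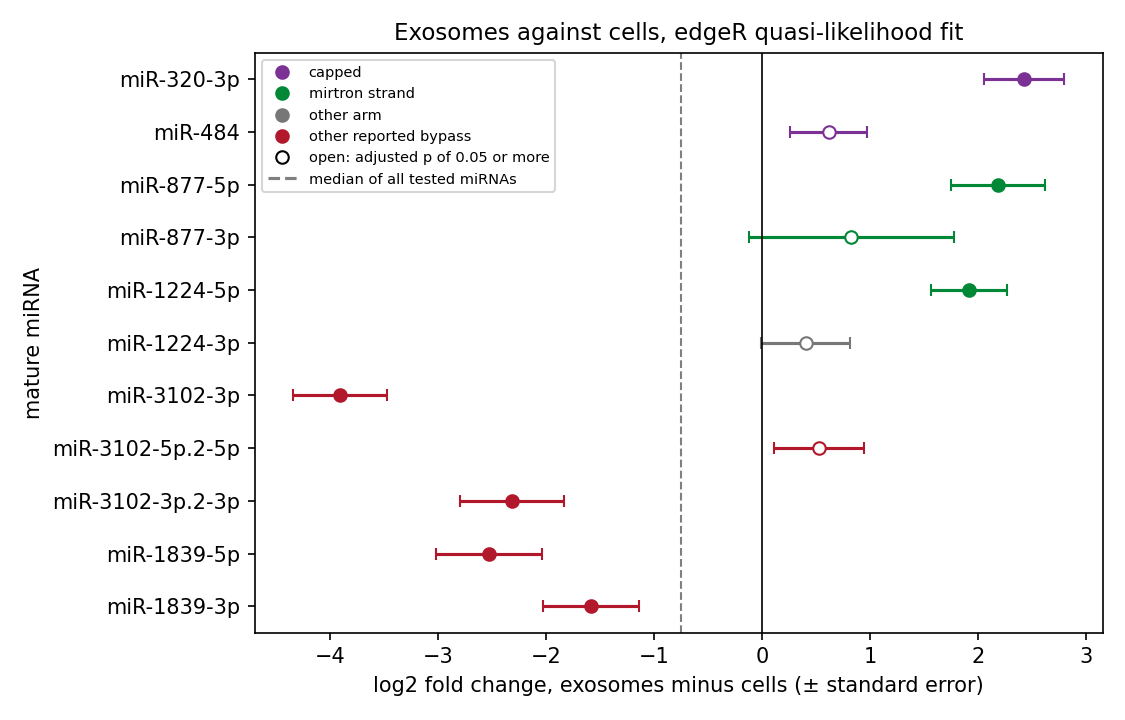
Log2 fold change of exosomes minus cells with its standard error (edgeR's quasi-likelihood fit, 2 libraries a group) for the capped and mirtron strands, the other arm of mir-1224 and the listed miRNAs for which a fold could be fitted. Filled points passed the adjusted threshold of 0.05, and the dashed line is the median of the 438 tested miRNAs, -0.75. miR-320-3p, miR-877-5p and miR-1224-5p lie to the right at 2.43, 2.19 and 1.92, while miR-3102-3p lies at -3.91 and was below 0 in each of its 12 alternatives.

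Hairpins that span an annotated intron were also counted without a list from the literature. The 16 such hairpins have 34 listed strands, of which 25 had a count and 11 were tested. Apart from miR-877-5p, miR-877-3p and miR-1224-5p, 8 were tested, of which 0 were higher, 3 were lower and 5 did not pass in edgeR's quasi-likelihood test. The lower share is near the 29.5% of all tested miRNAs. The 3 lower ones were miR-3102-3p, miR-3102-3p.2-3p and miR-1981-3p. miR-1982-3p with 34 and 38 counts in the cells and 0 in the exosomes, and miR-3547-3p with 57 and 63 counts in the cells but 0 and 1 in the exosomes, were at or under the floor in exosomes, and no fold is given. The same holds for miR-1981-5p, named above.

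By the likeness of their profile over the 4 libraries, the miRNAs closest to miR-484 were miR-466q, miR-185-5p and miR-344-3p, with a root mean square difference of 0.05, 0.08 and 0.11 on the log2 scale after centring. Of these, miR-185-5p was read 5028 and 3995 times in the cells, and 255 and 177 times in the exosomes. In the exosomes miR-466q had only 8 and 5 counts and miR-344-3p only 7 and 4. The closest to miR-320-3p were miR-467a-3p, miR-467d-3p and miR-194-2-3p, at 0.20, 0.24 and 0.25. These 3 had at most 27 counts in any library, so that their profiles are less precise than that of miR-320-3p. Their exosome counts were 3 and 1, 4 and 1, and 6 and 3, which puts miR-467a-3p at or under the floor there. Over 4 libraries such likeness is a description.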

How the data were processed

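Small RNA libraries of MIN6 cells and MIN6-derived exosomes (2 each) were prepared by the authors with the SMARTer smRNA-Seq kit, which adds a poly(A) tail and switches template. The authors trimmed adapters, discarded rRNA reads and aligned the rest in turn to the genome (mm10 in the submitters' processing notes, which also name cutadapt, Bowtie, Bowtie2, STAR, RSEM and edgeR), miRBase v21 and RNAcentral v10.0. The deposited values used here are raw read counts per mature miRNA, per hairpin and off the annotated arms. Another 12 columns of values, the RPM and the reads per arm, were not used.

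Starting from the counts, 438 of 1101 miRNAs with a count passed filterByExpr of edgeR 4.0.16 (minimum count 10). The test between groups was the quasi-likelihood test with TMM factors and Benjamini-Hochberg adjustment over all 438. Standard errors (SE) were taken as the absolute log2 fold change divided by the root of F. The study's methods use the exactTest at a fold of 2 and an unadjusted p of 0.05, run here as an alternative. Where both libraries of a group had 3 counts or fewer, a fold is given as a bound against 3 counts per library, or not at all. Wilson intervals are at 95%. Introns and genes are those of GENCODE vM21 (GRCm38), matched by hairpin sequence. The fit was run on simulated counts with the same dispersion in all libraries and equal numbers of raised and lowered miRNAs. That setting does not cover the wider spread of the exosome replicates or the shift of the median with the scaling. The software was R 4.3.3 with DESeq2 1.42.0, and scipy 1.17.1 and matplotlib 3.10.9 under Python 3.11.15.

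The strands and lists were chosen with earlier results of these data known. Named besides the 6 strands were the other arms, the list of 12, strands of intron-spanning hairpins with at least 10 counts in a library, the 3 closest profiles to miR-320-3p and miR-484, and cell type markers. The arm shares of mir-1224 and mir-320 and the ratios of miR-877-5p and miR-1224-5p to miR-484 were chosen after their counts were seen.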

Additional observations from a re-analysis of the deposited data

How the results depend on the processing

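The increases of miR-320-3p, miR-877-5p and miR-1224-5p kept their direction in all 13 alternatives each, between 1.12 and 3.77, 0.87 and 3.47, and 0.60 and 3.22 on the log2 scale. The number of the 6 strands that were higher was 0 without a filter, where 9.45% of 1101 miRNAs were higher. When a library was left out, the lone library of a group was assumed to vary like the others. Without cell replicate 1 or 2, 238 and 239 miRNAs were tested, 4 of the 6 strands among them. For all miRNAs, leaving out each library gave 46 to 115 higher and 56 to 162 lower. Lower calls were 30 with library size alone and 202 without a filter. With at least 10 counts in every library, 37 were higher and 40 lower. The median log2 fold change was 0.61 with library size alone, -0.07 with upper quartile scaling, -0.83 with RLE and -1.67 without a filter, and fold changes are read against it. The share of calls that were higher therefore moved with the scaling, to 137 higher against 30 lower with library size alone and 129 against 95 with upper quartile scaling. Without a filter, where TMM factors were computed over 1101 miRNAs, miR-484 (-0.70), miR-877-3p (-0.47), miR-1224-3p (-0.92) and miR-3102-5p.2-5p (-0.76) turned negative. Strands that kept their sign fell as well, miR-320-3p from 2.43 to 1.12 and miR-3102-3p from -3.91 to -5.20, so these reversals were not particular to the strands that turned. When a library was left out, miR-1224-3p was between -0.18 and 1.10. The cause of these shifts was not tested. The 6 strands took 0.238% of the counts in cells and 1.55% in exosomes when the 5 most abundant miRNAs of each group were left out of the sum.

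Same-numbered libraries share only a number in the labels, and their deviations correlated at 0.19 across miRNAs. With the replicate block 117 miRNAs were higher and 109 lower, and 2 of the 6 strands were higher. Depth limits the exosome values, where a level under 35.4 or 69.9 CPM lies below 3 counts.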
